A study of Mus musculus with 57 samples.

Results

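The type I interferon stimulated genes described here are 37 mouse genes chosen by name as widely used targets of interferon alpha and beta. Their levels were followed in distal colon with and without AOM+DSS treatment and in the tumors that formed. A gene counted as measured when the array held a probe set annotated to that gene's symbol alone, and the brightest such probe set was used. This left 33 of the 37 genes, out of 22180 genes measured in the same way. Oas1a, Ifi27l2a and Dtx3l were annotated only on probe sets shared with Oas1g, Ifi27l2b and Parp9, and no probe set was named for Ifi44, so these 4 have no value here.

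Type I interferons are secreted when cells sense nucleic acids in the wrong place, and nearly all cell types carry their receptor, a pair of Ifnar1 and Ifnar2 chains. Receptor-bound kinases start the signal, and a complex that holds Stat2 and Irf9 enters the nucleus and binds the interferon-stimulated response element (ISRE) in the promoters of target genes. In the gut, microbial products keep a low interferon tone, and epithelial, myeloid and lymphoid cells can all respond; interferon gamma and lambda induce overlapping sets of genes.

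RNA came from female C57BL/6 mice aged 18 to 24 weeks, on 57 Affymetrix arrays in 6 groups. The fl/fl mice (INSRfl/fl littermates) gave 10 untreated colons, 10 AOM+DSS colons and 8 tumors. The knockout mice (villin-CRE-INSR-/-) gave 10 untreated colons, 10 AOM+DSS colons and 9 tumors. Treated mice received the carcinogen azoxymethane (AOM) at 7.4 mg/kg into the peritoneum and, on week 2, dextran sulfate sodium (DSS) at 3% for 7 days, which injures the colon epithelium. They were killed in week 5, 3 weeks after DSS, so the treated colons were sampled after DSS dosing and not during it. Titles of the treated colons and tumors name DSS AOM colitis, and whether injury remained was not measured here. Both knockout and fl/fl mice carry the floxed insulin receptor gene; the villin promoter drives Cre in intestinal epithelium, so stromal and immune cells of the knockout keep Insr. Nothing in the labels ties a tumor to the mouse that gave a colon sample, so all arrays were treated as independent. The p-values judge differences against the spread between these samples. If tumors and AOM+DSS colons came from the same mice, the tests left that pairing out, and their p-values could be off.

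Insr itself followed the genotype. On the log2 scale its lowest, median and highest levels were 8.70, 9.01 and 9.16 in untreated fl/fl colon and 7.74, 8.04 and 8.29 in untreated knockout colon. In AOM+DSS colon they were 8.28, 8.51 and 8.94 in fl/fl mice and 7.52, 7.72 and 7.96 in the knockout. Neither pair of groups overlapped. In tumors the levels were 7.70, 8.20 and 8.50 in fl/fl mice and 7.17, 7.38 and 8.35 in the knockout, and here the groups overlapped. The knockout was lower by limma with Benjamini-Hochberg adjustment in all 3 comparisons, with adjusted p-values from 6.71e-09 to 0.00234. Colon epithelium markers such as Epcam and Cdh1 were at a mean log2 level of 10.57 to 11.47 in every array, where array medians lay between 5.923 and 6.039.

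The interferon stimulated genes were higher in AOM+DSS colon than in untreated colon in both genotypes. In fl/fl mice 31 of 33 rose and none fell, where 22.7% of all genes changed and 12.2% rose. In knockout mice 30 of 33 rose and none fell, where 30.2% of all genes changed and 16% rose. The median log2 change of the 33 genes was 0.78 in fl/fl mice, a fold of 1.71, and 0.75 in the knockout, while the median of all genes was -0.04 in both. The same 30 genes passed in both genotypes. Isg20 and Ifit3 passed in neither, and Ifi35 passed in fl/fl mice alone; its change did not differ between genotypes beyond error (adjusted p = 0.844, limma interaction).

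**Figure D1:**
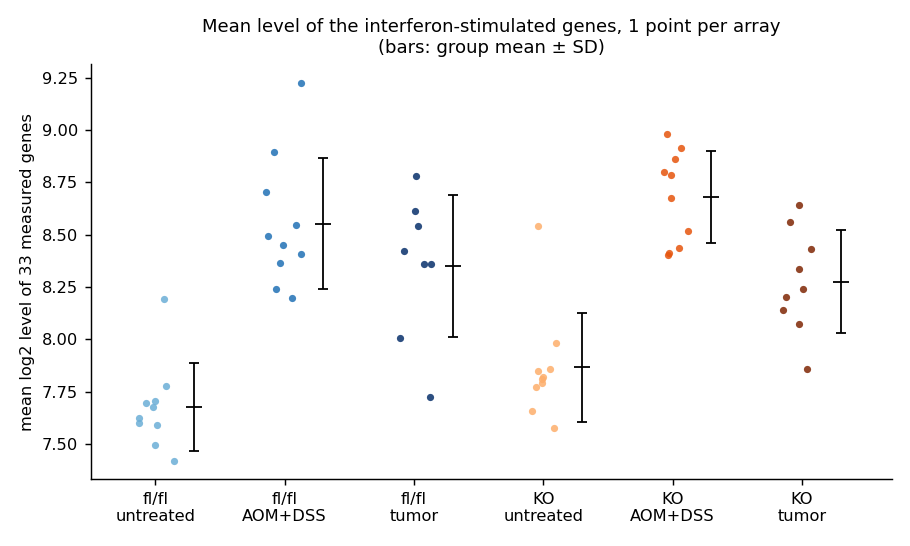
Mean log2 level of the 33 measured interferon stimulated genes in each of the 57 arrays (points), with group mean ± SD (bars), by genotype and condition. The 10 AOM+DSS arrays of the fl/fl mice lie between 8.20 and 9.23, all above the untreated fl/fl arrays (7.42 to 8.19), by a narrow margin; the knockout groups overlap because 1 untreated array stands at 8.54.

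Averaged over the 33 genes, each array gave 1 value. In fl/fl mice the lowest, median and highest array means were 7.42, 7.65 and 8.19 in untreated colon, 8.20, 8.47 and 9.23 after AOM+DSS and 7.72, 8.39 and 8.78 in tumors. In knockout mice they were 7.58, 7.82 and 8.54, then 8.40, 8.73 and 8.98, then 7.86, 8.24 and 8.64. Tumors lay between the other groups in both genotypes and overlapped both. An untreated array in each genotype stood high, replicate 4 in fl/fl mice and replicate 5 in the knockout, and these were the highest of their group for 24 and 25 of the 33 genes. Without these 2 arrays the counts after AOM+DSS were again 31 and 30.

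Promoter sequence was available for 24 of the 33 measured genes, from RefSeq on GRCm38.p6, as windows from 250 bases before to 50 bases after each transcript start. The ISRE core GAAANNGAAA, searched on both strands, occurred in 11 of these 24 genes (45.8%), against 3.99% of 27025 genes with windows of the same length. The core of the gamma-activated site (GAS), TTCNNNGAA, occurred in 5 of 24 (20.8%) against 9.55%. Of the 17 ISRE core matches, which may overlap each other, 13 lay before the start, in 8 genes and between 27 and 222 bases from it. The genes were chosen as known interferon targets, so these shares describe the list. Stretches are shown 5′ to 3′ on the strand of the gene, with ISRE core matches in capitals, for 7 genes with matches before the start and 2 without a match.
Ifit1, chr19:34640770-34640829, plus strand: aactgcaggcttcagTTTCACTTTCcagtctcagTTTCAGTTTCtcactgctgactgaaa
Ifit3, chr19:34583358-34583431, plus strand: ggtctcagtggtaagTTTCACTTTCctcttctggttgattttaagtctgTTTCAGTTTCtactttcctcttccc
Isg15, chr4:156200852-156200911, minus strand: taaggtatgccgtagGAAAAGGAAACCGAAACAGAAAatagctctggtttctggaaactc
Oas3, chr5:120777690-120777749, minus strand: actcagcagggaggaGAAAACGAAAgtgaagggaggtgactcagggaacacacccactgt
Bst2, chr8:71537558-71537617, minus strand: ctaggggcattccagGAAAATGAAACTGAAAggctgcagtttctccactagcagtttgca
Rsad2, chr12:26456528-26456587, minus strand: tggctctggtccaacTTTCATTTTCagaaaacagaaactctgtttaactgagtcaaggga
Stat2, chr10:128270261-128270320, plus strand: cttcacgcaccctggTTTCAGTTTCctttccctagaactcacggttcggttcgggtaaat
Oasl2, chr5:114896874-114896933, plus strand: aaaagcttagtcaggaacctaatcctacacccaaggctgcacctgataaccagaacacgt
Isg20, chr7:78913364-78913423, plus strand: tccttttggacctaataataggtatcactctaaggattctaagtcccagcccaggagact
Ifit1 and Ifit3 each hold 2 separate matches with the same letters, and Isg15 holds 3 that overlap. The stretches of Oasl2 and Isg20 are the 60 bases directly before the start, and neither gene had an ISRE core anywhere in its windows. A match is a description of these letters and was not measured as a binding site.

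**Figure D2:**
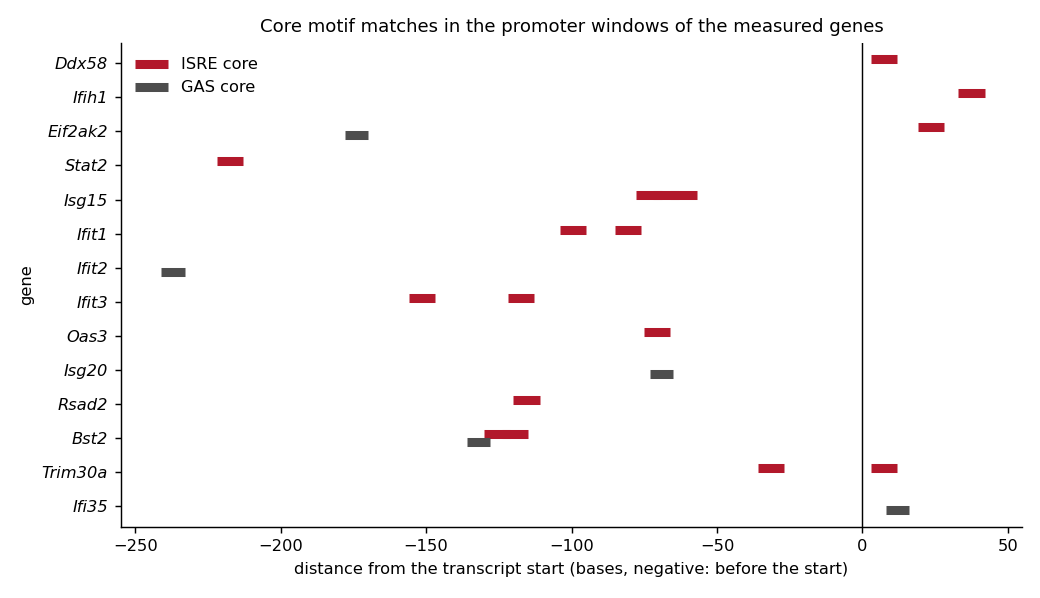
Positions of ISRE core (red) and GAS core (grey) matches, in bases from the transcript start, in the promoter windows of the measured genes that hold at least 1 match. Of the 17 ISRE core matches, 13 lie before the start; those of Ddx58, Ifih1 and Eif2ak2 and 1 of Trim30a lie after it.

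Among the nucleic acid sensors, all 5 rose after AOM+DSS in both genotypes. Zbp1, which senses Z-form nucleic acids and can start necroptosis, had the largest change of the 5. Its lowest, median and highest log2 levels were 7.87, 8.15 and 9.47 in untreated fl/fl colon and 9.44, 9.93 and 10.48 after AOM+DSS. In the knockout they were 8.21, 8.87 and 10.49, then 9.70, 10.23 and 10.69. Both pairs overlapped through the highest untreated array. The log2 change was 1.65 ± 0.21 (SE; adjusted p = 8.09e-08) in fl/fl mice and 1.21 ± 0.21 (adjusted p = 1.05e-05) in the knockout. The cytosolic RNA helicases moved less: Ddx58, which encodes RIG-I, rose by 0.73 and 0.66, Ifih1, which encodes MDA5, by 0.46 and 0.52, and their relative Dhx58 by 0.66 and 0.68. Eif2ak2, the RNA-activated kinase PKR that stops translation, rose by 0.41 and 0.39. All arrays of the treated group lay above all untreated ones for Ifih1 in both genotypes and for Ddx58 in the knockout.

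The 3 transcription factors of the pathway rose as well. Irf7, which amplifies interferon production, had lowest, median and highest levels of 8.87, 9.01 and 9.92 in untreated fl/fl colon and 9.55, 9.95 and 10.88 after AOM+DSS. The corresponding knockout levels were 9.03, 9.33 and 9.83, then 9.53, 10.04 and 10.35. The groups overlapped in both genotypes, and the log2 changes were 0.93 ± 0.15 (adjusted p = 3.85e-06) and 0.65 ± 0.15 (adjusted p = 0.000425). Stat2 and Irf9, partners in the complex that binds the ISRE, rose by 0.81 and 0.69 in fl/fl mice and by 0.76 and 0.52 in the knockout.

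Isg15 encodes a ubiquitin-like protein that is attached to other proteins during the interferon response. Its lowest, median and highest levels were 5.32, 6.15 and 7.13 in untreated fl/fl colon and 7.10, 7.58 and 8.83 after AOM+DSS, with 6.03, 6.33 and 7.73, then 7.33, 7.84 and 8.69 in the knockout. The fl/fl groups met at 1 array, and the knockout groups overlapped through the high untreated array. Isg15 rose by 1.45 ± 0.22 (adjusted p = 1.47e-06) and 1.49 ± 0.22 (adjusted p = 2.64e-07). Herc6, the mouse ligase that attaches Isg15, rose by 1.24 and 1.14. Usp18, the protease that removes Isg15 and also restrains receptor signalling, rose by 1.40 and 1.37. All 3 genes of the Isg15 system thus passed a fold of 2 in both genotypes.

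The genes for RNA-binding effectors gave the widest range. Ifit1, whose protein binds foreign RNA by its cap and blocks its translation, had the largest change of all 33 genes. Its lowest, median and highest levels were 6.69, 7.08 and 8.64 in untreated fl/fl colon and 8.55, 9.27 and 10.50 after AOM+DSS. In the knockout they were 6.75, 7.49 and 9.08, then 9.06, 9.67 and 10.29. In each genotype the overlap came from the 1 high untreated array, which reached just into the treated range. The log2 change was 2.17 ± 0.26 (adjusted p = 9.13e-09) in fl/fl mice and 2.05 ± 0.26 (adjusted p = 6.28e-09) in the knockout. Ifit2, of the same family, rose by 1.18 and 1.09, with no overlap between treated and untreated arrays in either genotype.

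The OAS family makes 2′-5′ linked oligoadenylate, which activates an RNA-degrading enzyme; the related Oasl1 lacks this activity. Oas2 rose by 1.76 and 1.64 and Oas3, its neighbour 3.2 kb away on chromosome 5, by 1.36 and 1.08. Oasl2 rose by 1.87 in fl/fl mice and 1.31 in the knockout, and Oasl1, 10.9 kb from it, by 0.78 and 0.80. The difference of 0.56 between genotypes in the response of Oasl2 was the one with the smallest p among the 33 genes, and it did not pass (p = 0.0613, adjusted p = 0.812, limma). Oasl2 had one of the largest responses, and its promoter window held no exact ISRE core. A link between core matches and the size of the response was not tested.

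Ifit3 and Isg20 were the exceptions. Ifit3 lies 51.9 kb from Ifit1 and 6.6 kb from Ifit2, and its promoter holds the same ISRE core letters as that of Ifit1. Its lowest, median and highest levels were 6.00, 6.44 and 6.72 in untreated fl/fl colon and 5.69, 6.34 and 6.67 after AOM+DSS, with 6.12, 6.41 and 6.89, then 6.28, 6.55 and 7.06 in the knockout. The groups overlapped almost fully. The log2 difference was -0.07 ± 0.11 (adjusted p = 0.684) in fl/fl mice and 0.11 ± 0.11 (adjusted p = 0.5) in the knockout, with 95% intervals from -0.29 to 0.15 and from -0.11 to 0.33. Ifit3b, a close copy of Ifit3 with a probe set of its own, was looked at after these values were seen. Its differences of 0.35 and 0.45 did not pass either (adjusted p = 0.175 and 0.0638, limma). Their 95% intervals ran from -0.03 to 0.72 and from 0.07 to 0.82. Ifit3b was dim, with medians of 3.78 in untreated and 4.17 in AOM+DSS fl/fl colon and of 3.96 and 4.34 in the knockout. Array medians were 5.923 to 6.039, and RMA compresses changes of dim transcripts. Whether the Ifit3 probe set reports its transcript well was not tested. Isg20, an RNA exonuclease, had levels of 8.29, 8.61 and 8.67 against 8.34, 8.56 and 8.93 in fl/fl mice and of 8.22, 8.61 and 9.09 against 8.46, 8.56 and 8.83 in the knockout. Its differences were 0.02 ± 0.07 (adjusted p = 0.902) and -0.05 ± 0.07 (adjusted p = 0.616), and its groups overlapped.

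All 8 of the other antiviral effectors rose in both genotypes. Rtp4, a small protein with a role in the interferon response and in receptor transport, led them. Its lowest, median and highest levels were 7.51, 8.19 and 8.91 in untreated fl/fl colon and 8.99, 9.54 and 10.45 after AOM+DSS, which did not overlap. In the knockout they were 7.81, 8.44 and 9.37, then 9.24, 9.71 and 10.10, with an overlap at the highest untreated array. Rtp4 rose by 1.42 ± 0.18 (adjusted p = 2.3e-08) and 1.23 ± 0.18 (adjusted p = 1.34e-07). Rsad2, which encodes viperin, and Cmpk2, its neighbour 12.7 kb away and a mitochondrial nucleotide kinase, rose by 0.54 and 0.85 in fl/fl mice and by 0.84 and 0.75 in the knockout. Trim30a rose by 0.78 and 0.92, and Bst2, the membrane protein tetherin that holds budding virions at the cell surface, by 0.58 and 0.53. Mx1 and Mx2 rose by 0.78 and 0.49 in fl/fl mice and by 0.73 and 0.68 in the knockout; RefSeq lists both as transcribed pseudogenes in this reference strain. Samd9l changed by little, 0.45 and 0.51, but its arrays varied so little that the treated and untreated groups did not overlap in either genotype.

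The mono-ADP-ribosyltransferase gene Parp14 had lowest, median and highest levels of 8.66, 8.82 and 9.37 in untreated fl/fl colon and 9.42, 9.80 and 10.30 after AOM+DSS, with no overlap. In the knockout they were 8.77, 9.03 and 10.13, then 9.66, 9.98 and 10.50, and the high untreated array lay inside the treated range. Parp14 rose by 0.92 ± 0.13 (adjusted p = 2.37e-07) and 0.86 ± 0.13 (adjusted p = 3.05e-07), and Parp9 by 0.73 and 0.67. Of the 4 remaining genes, Xaf1, a proapoptotic antagonist of XIAP, had levels of 7.37, 7.53 and 7.84 against 7.90, 8.08 and 9.10 in fl/fl mice, with no overlap, and of 7.10, 7.64 and 8.46 against 8.00, 8.46 and 8.80 in the knockout, with overlap. It rose by 0.70 ± 0.15 (adjusted p = 0.000272) and 0.78 ± 0.15 (adjusted p = 2.61e-05). Lgals3bp, a secreted galectin ligand, rose by 0.48 and 0.41 and Epsti1 by 0.37 in each genotype. Ifi35, which binds Nmi, rose by 0.29 (adjusted p = 0.00439) in fl/fl mice and had a difference of 0.12 (adjusted p = 0.261) in the knockout.

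Complete separation of treated from untreated arrays was found for 8 genes in fl/fl mice (Ifih1, Ifit2, Oas3, Oasl1, Parp14, Rtp4, Samd9l and Xaf1), where 0.821% of all genes lay wholly above. It was found for 5 genes in the knockout (Ddx58, Ifih1, Ifit2, Oas2 and Samd9l), where the share of all genes was 3.68%. Ifih1, Ifit2 and Samd9l are in both counts. Ifit1, Oasl2 and Zbp1 are in neither, since the high untreated array of each genotype reached into the treated range.

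**Figure D3:**
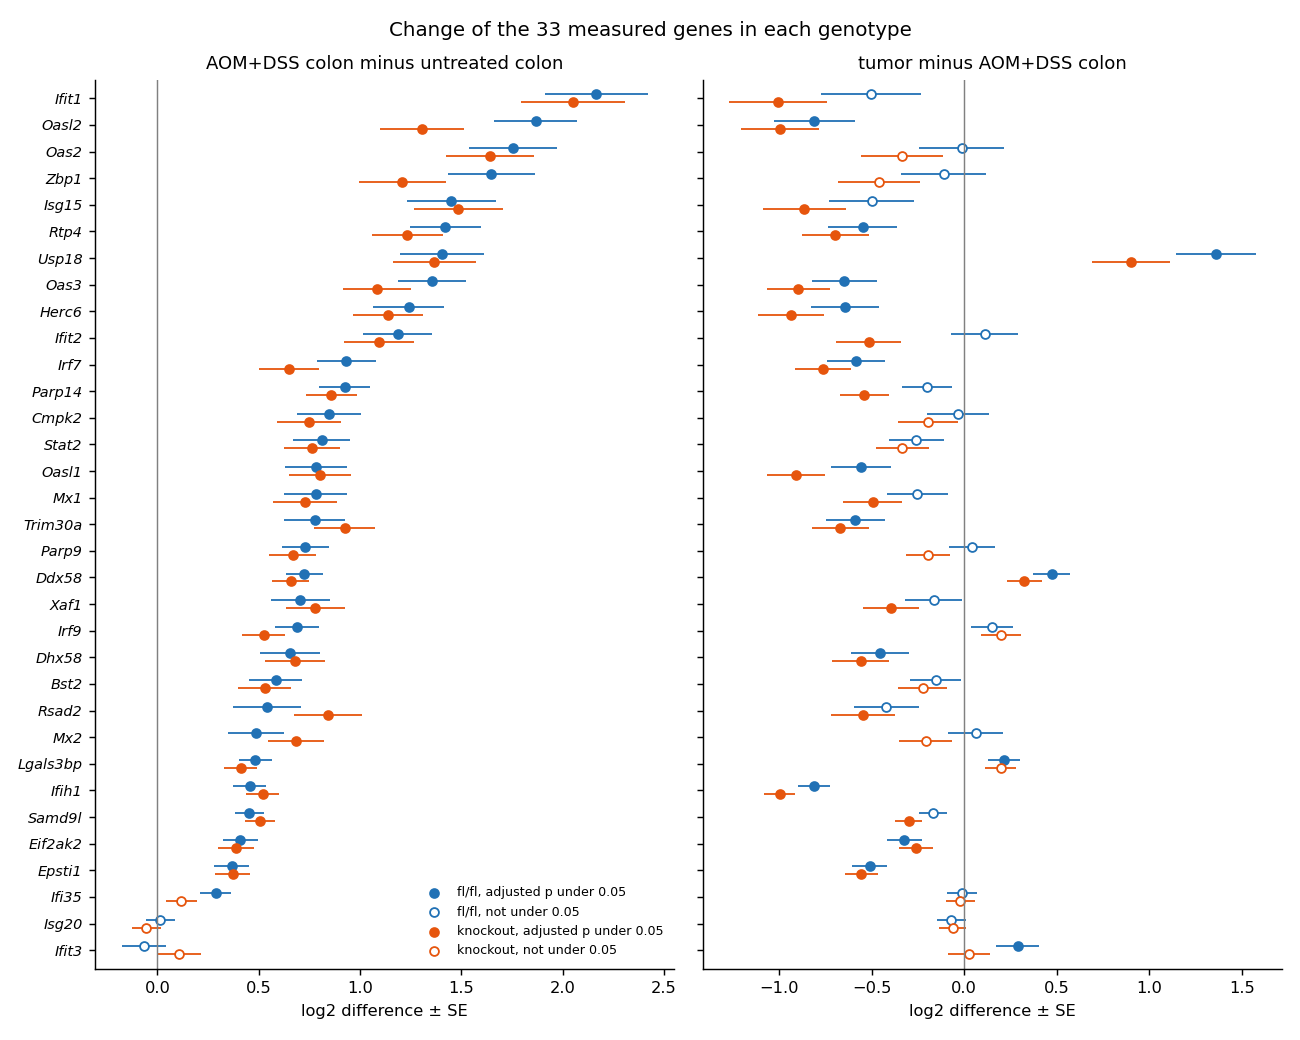
Log2 difference ± SE of the 33 measured interferon stimulated genes, AOM+DSS minus untreated colon (left) and tumor minus AOM+DSS colon (right), in fl/fl (blue) and knockout (orange) mice; filled points passed an adjusted p of 0.05 and genes are ordered by the fl/fl difference on the left. On the left all genes but Ifit3 and Isg20 lie at 0.12 or above; on the right most lie below 0 and Usp18 and Ddx58 stand above it.

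Tumors did not keep the response evenly. Against AOM+DSS colon, 11 of the 33 genes were lower and 4 higher in fl/fl tumors, where 41.2% of all genes changed, 20.2% lower and 21% higher. In knockout tumors 19 were lower and 2 higher, where 42.9% changed, 21.4% lower and 21.5% higher. The median log2 difference was -0.20 and -0.46, against 0.02 and 0.00 over all genes. Lower in both genotypes were 11 genes: the sensors Ifih1, Dhx58 and Eif2ak2, the factor Irf7, the ligase gene Herc6, the OAS genes Oas3, Oasl1 and Oasl2, and Rtp4, Trim30a and Epsti1. For the fl/fl call of Dhx58, leaving out fl/fl tumor replicate 5 or AOM+DSS replicate 6 ended it (adjusted p up to 0.0593), and that of Rtp4 ended without fl/fl tumor replicate 5 (adjusted p = 0.0735). Usp18 and Ddx58 were higher in both.

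Ifih1 showed the clearest fall, and its values, like those of Usp18 and Ddx58, were picked out after they were seen. In fl/fl mice its lowest, median and highest levels were 9.84, 9.92 and 10.09 in untreated colon, 10.18, 10.39 and 10.79 after AOM+DSS and 9.18, 9.56 and 10.06 in tumors. In the knockout they were 9.61, 9.90 and 10.26, then 10.32, 10.45 and 10.64, then 9.08, 9.45 and 9.77. Tumors lay wholly below AOM+DSS colon in both genotypes and overlapped untreated colon. In fl/fl mice Ifih1 was the one member of which this holds, where 6.38% of all genes lay wholly below; in the knockout Herc6 and Oasl2 did so too, where the share was 7.24%. The log2 difference from AOM+DSS colon was -0.81 ± 0.09 in fl/fl mice (adjusted p = 8.24e-12), a fold of 0.569, and the fold in the knockout was 0.501 (adjusted p = 2.62e-15). The log2 difference from untreated colon was -0.36 ± 0.09 (adjusted p = 0.00043) and -0.48 ± 0.08 (adjusted p = 2.3e-06). Ifih1 was the one member lower in tumors than in untreated colon.

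Usp18 and Ddx58 moved the other way. Usp18 had lowest, median and highest levels of 6.43, 6.60 and 7.49 in untreated fl/fl colon, 7.14, 8.10 and 9.53 after AOM+DSS and 8.54, 9.46 and 10.35 in tumors. The knockout series was 6.57, 6.98 and 8.27, then 7.85, 8.54 and 8.93, then 8.83, 9.39 and 9.98. Tumors lay wholly above untreated colon and overlapped AOM+DSS colon in both genotypes. Usp18 was higher in tumors than in AOM+DSS colon by 1.36 ± 0.22 (adjusted p = 4.65e-07) and 0.90 ± 0.21 (adjusted p = 0.0003), and higher than in untreated colon by 2.76 ± 0.22 (adjusted p = 1.79e-16) and 2.27 ± 0.21 (adjusted p = 5.98e-14). Ddx58 had levels of 7.32, 7.48 and 7.89, then 7.85, 8.22 and 8.81, then 8.43, 8.76 and 8.96 in fl/fl mice. In the knockout these were 7.52, 7.69 and 7.91, then 8.04, 8.33 and 8.67, then 8.28, 8.65 and 9.07. It was higher in tumors than in AOM+DSS colon by 0.47 ± 0.10 and 0.33 ± 0.09, with adjusted p-values of 5.56e-05 and 0.00345. Thus the genes of the RNA helicases RIG-I (Ddx58) and MDA5 (Ifih1), both higher after AOM+DSS, had opposite differences in tumors.

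**Figure D4:**
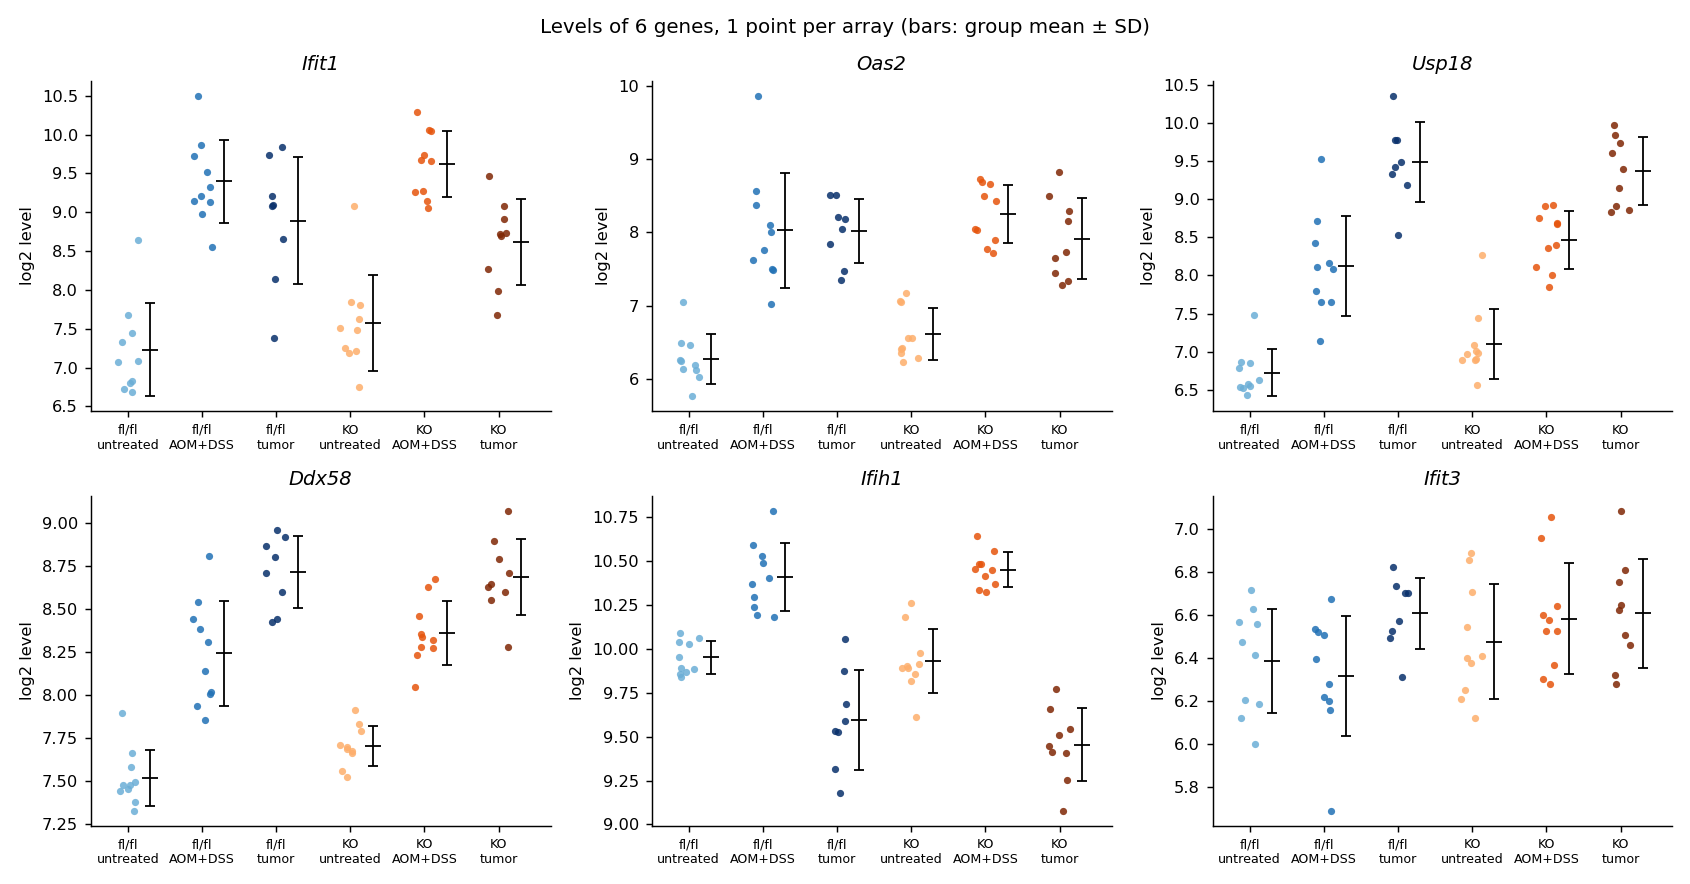
Log2 levels of Ifit1, Oas2, Usp18, Ddx58, Ifih1 and Ifit3 in each array (points), with group mean ± SD (bars), by genotype and condition; the vertical scale differs between panels. Ifit1 and Oas2 are high in AOM+DSS colon and tumors, Usp18 and Ddx58 are highest in tumors, Ifih1 falls in tumors to medians of 9.56 and 9.45, and the groups of Ifit3 overlap.

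In fl/fl tumors Ifit3 and Lgals3bp were also called higher than in AOM+DSS colon, by 0.29 (adjusted p = 0.0385) and 0.21 (adjusted p = 0.04). Each of these calls ended under 9 of the 18 fits that left out 1 array. In the knockout the differences were 0.03 and 0.20, and neither passed (adjusted p = 0.888 and 0.0515). In knockout tumors alone 8 genes passed as lower (Ifit1, Ifit2, Isg15, Mx1, Parp14, Rsad2, Samd9l and Xaf1), with Ifit1 at -1.01 ± 0.26 (adjusted p = 0.00114) and Isg15 at -0.86 ± 0.22 (adjusted p = 0.00105). In fl/fl tumors these were at -0.50 ± 0.27 (adjusted p = 0.138) and -0.50 ± 0.23 (adjusted p = 0.078). The difference between genotypes itself passed for none of the 33 genes. The smallest p was for Ifit2, at -0.52 in the knockout and 0.11 in fl/fl mice (p = 0.0162, adjusted p = 0.652). Xaf1 lost its call in 7 of the 19 fits that left out 1 knockout array.

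Compared with untreated colon, tumors kept part of the rise. In fl/fl tumors 23 genes were higher and 1 lower, where 45.4% of all genes changed, 22.9% higher. In knockout tumors 17 were higher and 1 lower, where 47.3% changed, 23.6% higher. The median log2 difference was 0.55 and 0.31, against -0.03 and -0.04 over all genes. The 17 genes were higher in both genotypes, among them Ifit1 (1.66 and 1.04), Oas2 (1.74 and 1.30), Zbp1 (1.54 and 0.75), Irf9 (0.84 and 0.72) and Lgals3bp (0.70 and 0.61). Tumors lay wholly above untreated colon for 5 genes in fl/fl mice (Ddx58, Irf9, Lgals3bp, Oas2 and Usp18; 8.98% of all genes) and for 3 in the knockout (Ddx58, Oas2 and Usp18; 10%). A further 9 genes passed in neither genotype, among them Irf7 at 0.35 (adjusted p = 0.0638) and -0.11 (adjusted p = 0.585) and Oasl1 at 0.22 (adjusted p = 0.273) and -0.11 (adjusted p = 0.612). Rtp4 was the one gene called between the others in both genotypes, lower in tumors than in AOM+DSS colon and higher than in untreated colon (0.87 and 0.54). The knockout calls of Parp14 and Xaf1 ended in 11 and 6 of 19 fits without 1 array, that of Isg15 without tumor replicate 7 (adjusted p = 0.0519) and that of Samd9l without tumor replicate 9 (adjusted p = 0.0679). Comparisons of tumors with the 2 kinds of colon share the tumor arrays and are not independent of each other.

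**Figure D5:**
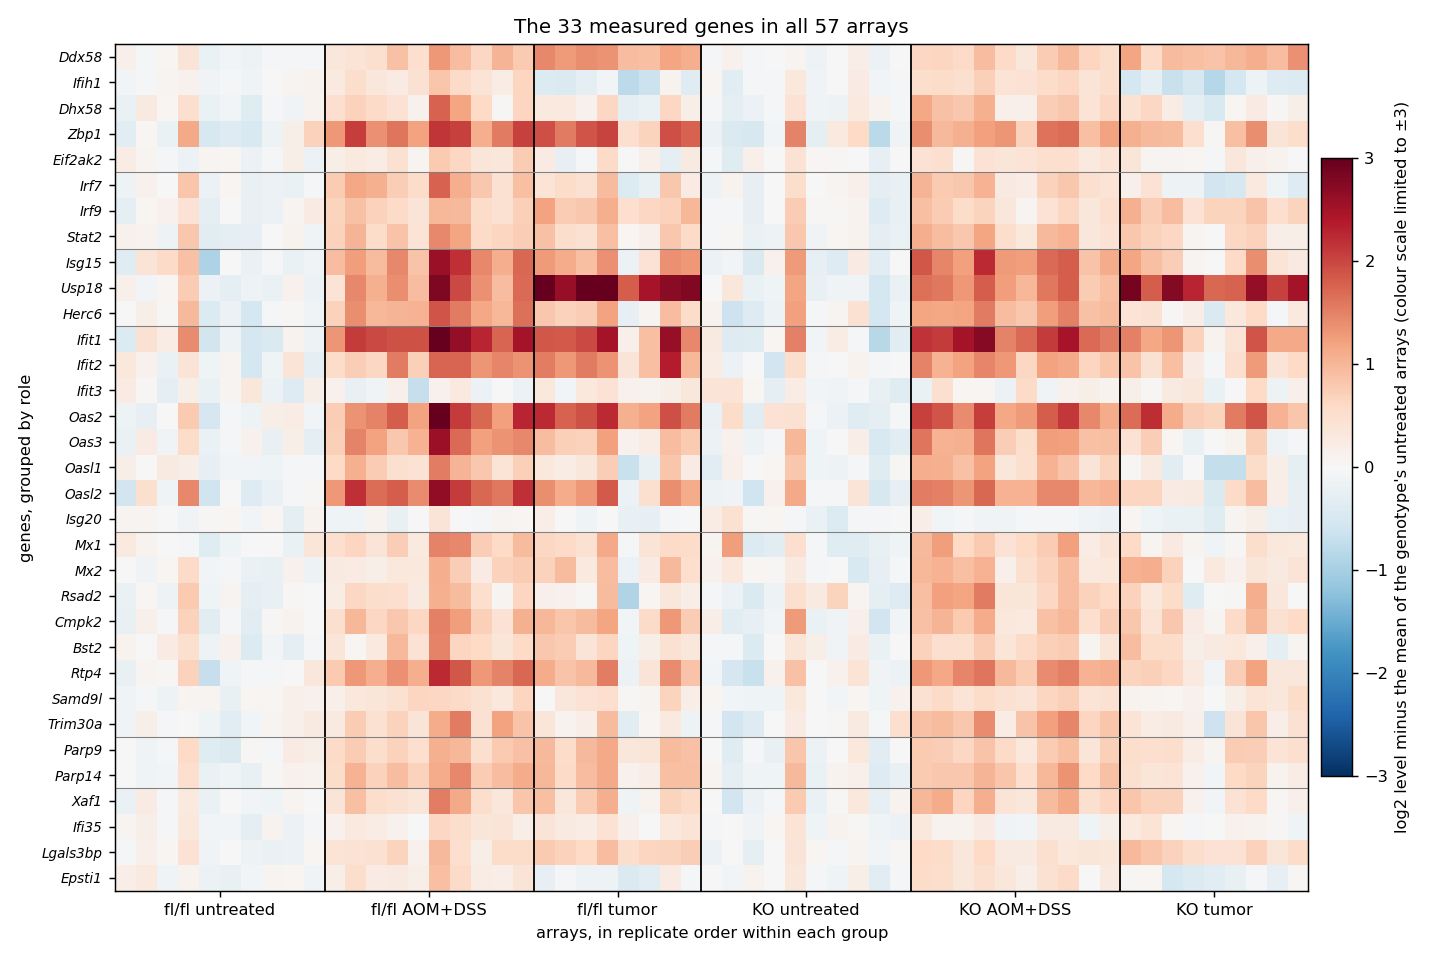
Log2 levels of the 33 measured interferon stimulated genes (rows, grouped by role) in all 57 arrays (columns), each relative to the mean of the untreated arrays of its genotype. Red is higher and blue lower, with colours limited to a difference of 3; the high untreated arrays, replicate 4 of fl/fl and replicate 5 of the knockout, show as red columns, and Usp18 is reddest in tumors.

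The insulin receptor genotype gave no call among the interferon stimulated genes. Between knockout and fl/fl mice none of the 33 passed in untreated colon, AOM+DSS colon or tumors, where 0.00451%, 0.541% and 0.00902% of all genes passed. At an unadjusted p under 0.05 there were 5, 1 and 2 of the 33 (15.2%, 3.03% and 6.06%), where 5.02%, 13.1% and 4.46% of all genes had such a p. In untreated colon the knockout was higher for 29 of 33 genes, with a median difference of 0.18, against 47.4% of all genes and a median of -0.00. The 16 interferon gamma targets were all higher there (median 0.41), as were all 10 macrophage markers (median 0.19, 5 with an unadjusted p under 0.05), and none of these passed. The high untreated arrays weigh on the gamma targets, with array means of 9.448 in the knockout and 8.138 in fl/fl mice. The medians of the array means were 7.424 and 7.198. The mean of the T cell markers was higher too (6.402 against 6.323). Those of B cells (6.450 against 6.608) and neutrophils (6.148 against 6.218) were lower in the knockout. The part of these genes in the difference was not tested. The smallest p-values there were those of Zbp1 (0.67 ± 0.21, p = 0.00273, adjusted p = 0.651), Oasl2 (0.63 ± 0.21, p = 0.00344, adjusted p = 0.654) and Parp14 (0.29 ± 0.13, p = 0.0281, adjusted p = 0.908). The 95% intervals reached from 0.24 to 1.10 for Zbp1 and from 0.22 to 1.05 for Oasl2. The genes vary together, so a count of 29 is not 29 separate observations.

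After AOM+DSS the knockout was higher for 30 of 33 genes, with a median difference of 0.12, against 49.6% of all genes and a median of -0.00. Markers of some other cells lay the same way, with none past the threshold: 10 of 10 for macrophages (median 0.24), 5 of 5 for T cells (0.42), 5 of 5 for B cells (0.78), 7 of 7 for neutrophils (0.57) and 6 of 6 for fibroblasts (0.32). List means of other markers were lower in the knockout. They were 12.518 against 12.661 for smooth muscle, 11.745 against 11.946 for colonocytes and 11.126 against 11.173 for colon epithelium. The part of these cells in the difference was not tested. The smallest p was for Ifit3 (0.26 ± 0.11, p = 0.0186, adjusted p = 0.249), followed by Trim30a (0.28 ± 0.15, adjusted p = 0.423) and Parp14 (0.22 ± 0.13, adjusted p = 0.473). In tumors it was higher for 10 of 33, with a median of -0.06, and the smallest p-values were for Oasl1 (-0.35 ± 0.17), Ifit2 (-0.37 ± 0.19) and Ifih1 (-0.14 ± 0.09), each with an adjusted p of 1. For Ifit1 the difference was 0.34 ± 0.26 in untreated colon, 0.23 ± 0.26 after AOM+DSS and -0.27 ± 0.28 in tumors. The tests of whether the AOM+DSS response, the step from AOM+DSS colon to tumor or the step from untreated colon to tumor differed between genotypes called none of the 33 and 0 of 22180 genes. For these tests 0, 1 and 6 of the 33 had an unadjusted p under 0.05, where 6.09%, 6.63% and 4.43% of all genes did. The 6 genes of the last were led by Ifit2 (-0.72 ± 0.25), Zbp1 (-0.79 ± 0.32) and Oasl2 (-0.74 ± 0.31), each with an adjusted p of 0.999. Leaving out knockout tumor replicates 6 and 8, which had the highest Insr of that group, gave 0 calls again.

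The 33 genes varied together from array to array within a group. After each gene was centred on its group means, its correlation over 57 arrays with the mean of the other members ran from 0.284 to 0.922, with a median of 0.795, and was over 0.7 for 25 genes. Cmpk2 (0.922), Stat2 (0.914) and Isg15 (0.914) were closest to the rest, and Ifit3 (0.284) and Isg20 (0.339) farthest. The widest SD within groups was that of Ifit1 (0.595), Isg15 (0.506) and Oas2 (0.505), and 20 of the 33 genes lay above the 90th percentile of all genes. Isg20 (0.161) and Samd9l (0.163) varied least among the 33, while Ifih1 (0.183) lay at percentile 50.3 of all genes. Single arrays were high or low for most genes at once: replicate 6 was the highest AOM+DSS array of fl/fl mice for 29 of 33 genes, replicate 4 the highest fl/fl tumor for 21, and replicate 5 the lowest tumor for 27 in fl/fl mice and for 24 in the knockout. These correlations share arrays, tissue composition and normalization, and no test was made of them.

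By the same measure the 12 genes outside the list most like the mean of the members were Ddx60 (0.898), Apol9b (0.871), Rnf213 (0.855), Parp12 (0.834), Apol9a (0.825), Ube2l6 (0.801), Irgm1 (0.792), Uba7 (0.788), Psmb9 (0.783), Gbp3 (0.779), Igtp (0.762) and Tap1 (0.761). All 12 were higher after AOM+DSS in both genotypes, where 12.2% (fl/fl) and 16% (knockout) of all genes were. Ddx60, a helicase-like relative of the RNA sensors, rose by 2.17 (adjusted p = 2.61e-10) and 1.77 (adjusted p = 5.09e-09), and was lower in tumors than in AOM+DSS colon by 1.17 and 1.71 on the log2 scale. Ube2l6 and Uba7, the conjugating and activating enzymes for Isg15, rose by 0.68 and 0.72 in fl/fl mice and by 0.40 and 0.52 in the knockout.

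The interferon ligands themselves did not rise. Of 9 measured ligand genes none passed as higher after AOM+DSS in either genotype. In each genotype 1 passed as lower, Ifna4 in fl/fl mice (-0.26) and Ifnl3 in the knockout (-0.32). Among all genes 12.2% were higher and 10.5% lower in fl/fl mice, and 16% and 14.2% in the knockout. Ifnb1, the first interferon made by most cells, had lowest, median and highest levels of 3.54, 3.89 and 4.29 in untreated and 3.53, 3.89 and 4.26 in AOM+DSS colon of fl/fl mice. Its difference was 0.02 (adjusted p = 0.891) there and 0.13 (adjusted p = 0.297) in the knockout, and Ifng, the type II ligand, was at -0.10 and 0.06. Median levels of the 9 ligand genes in untreated fl/fl colon ran from 3.89 for Ifnb1 to 8.07 for Ifnl2, where array medians were 5.923 to 6.039, and RMA compresses changes of the dimmest of them.

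Of the 6 receptor genes 3 rose after AOM+DSS in both genotypes and none fell, where 12.2% (fl/fl) and 16% (knockout) of all genes rose. These were Ifnar1 (0.15 and 0.32), Ifnar2 (0.54 and 0.73) and Il10rb (0.21 and 0.20), the last shared by interferon lambda and interleukin 10. Ifnar1 was higher still in tumors, by 0.71 and 0.80 against untreated colon. Ifngr1, a chain of the interferon gamma receptor, was lower in tumors than in untreated colon by 0.47 and 0.44 on the log2 scale. Among 8 signalling genes 5 rose in fl/fl mice and 6 in the knockout, among them the kinase gene Jak2 (0.37 and 0.54) and the phosphatase gene Ptpn6 (0.47 and 0.72). Socs3, a feedback inhibitor of cytokine receptors, had the largest change of the 8, 0.64 and 0.79, and stood 1.73 and 1.67 above untreated colon in tumors. Some members of these lists are not reported here.

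Of 17 genes of upstream sensing 9 rose after AOM+DSS in each genotype, and 1 fell in fl/fl mice and 2 in the knockout. Among all genes 12.2% rose and 10.5% fell in fl/fl mice, and 16% rose and 14.2% fell in the knockout. The endosomal nucleic acid receptors Tlr7 (0.85 and 1.10), Tlr8 (1.03 and 1.13) and Tlr9 (0.58 and 0.82) rose, as did the DNA-binding Ifi204 (1.87 and 2.03). Mavs, the adaptor downstream of RIG-I and MDA5, was lower after AOM+DSS by 0.20 and 0.42 and lower still in tumors, by 0.73 and 0.79 against untreated colon, on the log2 scale. Sting1, the adaptor of cytosolic DNA sensing, had the opposite course. Its lowest, median and highest levels were 8.29, 8.67 and 8.78 in untreated fl/fl colon, 8.61, 8.93 and 9.66 after AOM+DSS and 10.52, 11.17 and 11.54 in tumors. Tumors lay wholly above both kinds of colon, by 2.50 (adjusted p = 4.6e-24) against untreated colon in fl/fl mice and by 2.63 (adjusted p = 9.42e-26) in the knockout. Sting1 was also higher in knockout than in fl/fl AOM+DSS colon, by 0.47 (adjusted p = 0.0491), close to the threshold.

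A set of 16 measured genes best known as interferon gamma targets rose alongside, 15 in fl/fl mice and 14 in the knockout after AOM+DSS. The shares of all genes that rose were 12.2% and 16%. Ido1, the tryptophan-degrading enzyme, rose by 2.75 and 2.40, Gbp3 by 1.38 and 1.32, and the chemokine gene Cxcl9 by 1.55 and 1.66. In tumors Cxcl9 stood 2.96 and 2.51 above untreated colon. Of the 16 genes 13 and 9 were higher in tumors, where 22.9% and 23.6% of all genes were. The mean of this set, centred on its groups, followed the mean of the 33 members over 57 arrays with a Pearson correlation of 0.785 and a Spearman correlation of 0.775, and 0.726 by Pearson without the 2 farthest arrays. The type I and gamma responses share many targets and could not be told apart from these levels.

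Markers of several other cell types also rose after AOM+DSS. For the counts below, 12.2% of all genes rose after AOM+DSS in fl/fl mice and 16% in the knockout. After AOM+DSS 9 of 10 macrophage markers rose in each genotype, with list means per array of 8.30 to 8.85 in untreated and 8.94 to 9.59 in treated fl/fl colon, and Cx3cr1 did not pass. T cell markers rose for 4 of 5 and 5 of 5, with means of 6.05 to 6.75 against 6.69 to 7.61 in fl/fl mice. B cell markers rose for 5 of 5 in each, neutrophil markers for 6 and 7 of 7, and fibroblast markers for 6 of 6 in each. Of the 6 markers listed for plasmacytoid dendritic cells, the main makers of interferon alpha, 2 rose in fl/fl mice (Ly6d and Spib) and 3 in the knockout (also Ccr9), while Siglech, the one most tied to these cells, was at -0.10 (adjusted p = 0.496) and 0.15 (adjusted p = 0.289). The part of these cells in the rise was not tested, and in bulk tissue more cells of a type and more RNA per cell cannot be told apart. Within groups the mean of the 33 genes followed the T cell mean with a Pearson correlation of 0.641 (Spearman 0.603) and the macrophage mean with 0.352 (Spearman 0.395), over 57 arrays. The Pearson correlations with the other lists of this paragraph were 0.132 for plasmacytoid dendritic cells, 0.114 for B cells, -0.053 for neutrophils and -0.067 for fibroblasts.

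Squamous epithelium is the lining that borders the distal colon at the anus. Of its 5 markers 4 were higher after AOM+DSS in each genotype, where 12.2% and 16% of all genes were. List means per array ran from 5.24 to 9.27 in untreated and from 5.22 to 10.19 in treated fl/fl colon. Within groups the squamous mean and the mean of the 33 genes had a Pearson correlation of -0.000 (Spearman 0.024) over 57 arrays, and the part of this tissue in the AOM+DSS difference was not tested. In tumors all 5 smooth muscle markers were lower than in untreated colon. Their list means were 10.55 to 11.58 against 12.43 to 12.77 in fl/fl mice. All 4 colonocyte markers were lower too, where 22.5% (fl/fl) and 23.7% (knockout) of all genes were lower. Against AOM+DSS colon, all 5 B cell markers were lower in tumors of both genotypes. In knockout tumors, where 19 of the 33 members were lower, so were 4 of 5 T cell, 5 of 10 macrophage and 5 of 6 fibroblast markers. In fl/fl tumors, where 11 members were lower, the counts were 1, 2 and 4. Among all genes 21.4% were lower in knockout tumors and 20.2% in fl/fl tumors. The fl/fl counts of T cell and macrophage markers were at about that share. Other markers went the other way. Neutrophil list means were 7.994 in tumors against 7.509 in AOM+DSS colon of fl/fl mice and 8.376 against 8.046 in the knockout. The neutrophil marker Ly6g was lower in tumors of both genotypes. The macrophage marker Cd14 had means of 9.53 in tumors against 9.03 in fl/fl mice and 9.70 against 9.14 in the knockout. The part of these shifts in the tumor differences, those of Ifih1 and Sting1 included, was not tested.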

How the data were processed

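The deposited log2 values, 1 per probe set and array, were made by the authors with RMA, per the submitters' processing notes; the version is not given in the sources used here. RMA quantile-normalizes the arrays and compresses changes of dim transcripts. Per the labels' protocols, 250 ng of total RNA was amplified and labelled with the WT Plus kit. The table held 41345 probe sets, of which 23521 carried 1 gene symbol; the brightest was taken for each of 22180 genes, and no dim gene was removed. Groups came from the sample titles. All tests used limma 3.58.1 in R 4.3.3 (lmFit, contrasts.fit, eBayes) on 1 model of 6 groups over 57 arrays with 51 residual degrees of freedom, two-sided; p-values were adjusted across all 22180 genes by Benjamini-Hochberg, and a gene passed below 0.05. The script was checked on simulated data. Replicate numbers were not used to pair samples. Members and lists were chosen with earlier results of these data known. Levels are given for the member of each role with the largest fl/fl change after AOM+DSS and for every member that did not pass there; in genotype tests the 3 smallest p-values are named. Other genes given with levels were chosen after their values were seen. Some list members are not reported here. Gene and promoter positions are from RefSeq, GRCm38.p6. The number of arrays limits the precision.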

Additional observations from a re-analysis of the deposited data

Results flagged for a closer look

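In groups of 8 to 10 arrays, 30 values of members or list means stood apart as the highest or lowest of their group, with a gap to the next array above Dixon's 95% critical value. That is 11.4% of 264 group searches, where chance flags about 1 in 20 groups, and members that vary together are flagged together. Most of the 30 came from 2 arrays of untreated colon. In fl/fl replicate 4 the flagged log2 levels were 9.923 for Irf7, 9.309 for Stat2, 7.486 for Usp18, 8.659 for Herc6, 8.641 for Ifit1, 10.003 for Oasl2, 5.063 for Mx2, 7.814 for Rsad2, 8.336 for Cmpk2 and 9.372 for Parp14, and 8.192 for the mean of the members. In knockout replicate 5 they were 9.389 for Irf9, 9.447 for Stat2, 7.732 for Isg15, 8.272 for Usp18, 9.078 for Ifit1, 7.695 for Oas3, 9.236 for Oasl1, 9.129 for Cmpk2, 10.130 for Parp14 and 8.939 for Ifi35, and 8.540 for the mean of the members. These 2 arrays also had the highest mean of the interferon gamma targets in their groups, 8.138 and 9.448.

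In AOM+DSS colon, replicate 6 of the fl/fl mice was high for Oas3 (8.979) and Isg20 (8.932), replicate 5 was low for Ifit3 (5.692), and in the knockout replicate 1 was high for Isg20 (8.835) and replicate 3 low for Eif2ak2 (9.100). Among tumors, Trim30a was low in knockout replicate 5 (5.060), the colonocyte mean was low in knockout replicate 6 (6.886), and the B cell mean was high in fl/fl replicate 3 (8.137).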

How the results depend on the processing

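The counts of genes past the threshold stayed within 1.5 times the values given under every alternative run: another array scaling or quantile normalization, removal of the dimmest 25% of genes, probe set means, a variance trend, a fit on the compared groups alone, array weights, the replicate number as a block, and, chosen after seeing the data, leaving out the 2 high untreated arrays or the 2 knockout tumors with the highest Insr. Leaving out 1 array gave 31 and 30 after AOM+DSS, 13 to 17 and 20 to 23 for tumors against AOM+DSS colon, 24 to 25 and 16 to 19 for tumors against untreated colon (fl/fl, then knockout), and 0 between genotypes. With the replicate block the counts were 31, 30, 16, 23, 24, 19 and 0. Deviations of same-numbered arrays from their group means had median correlations from -0.073 to 0.132 between groups. Of 8 to 10 pairs, 1 to 5 were over 0.1. Differently numbered arrays were not compared, so this cannot tell whether a number marks a shared batch or pairing. The block raised the count of all genes that differed between genotypes in AOM+DSS colon from 120 to 188. For AOM+DSS against untreated colon it went from 5044 to 5438 in fl/fl mice and from 6692 to 7071 in the knockout. In tumors the genotype count went from 2 to 1. Of 139 calls on members, none reversed under these alternatives and 9 ended when 1 array was left out. Removal of the dimmest 25% of genes left 135 calls to compare and ended none. Probe set means ended 2 calls in fl/fl tumors, Lgals3bp against AOM+DSS colon and Ifi35 against untreated colon. Each of these 2 genes has 2 probe sets. The fit on the compared groups alone ended 3 calls, those of Dhx58, Lgals3bp and Parp14. Quantile normalization ended the knockout tumor calls of Samd9l, Parp14 and Xaf1 against untreated colon; the cause was not tested.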
